A study of Mus musculus with 4 samples.

Results

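The genes of the major histocompatibility complex (MHC, named H2 in the mouse) and of antigen processing were followed in cultured keratinocytes of 2 Casp8 genotypes. The members are every gene probe whose name in the array files starts with H2-, together with the probes of B2m, Tap1, Tap2, Tapbp, Psmb8, Psmb9, Psmb10, Psme1, Cd74 and Ciita. They number 69 of the 41174 gene probes on the array and stand for 46 gene names. Class I heavy chains have 38 probes of 25 genes, class I processing genes 12 probes of 8 genes, and class II genes, with Cd74 and Ciita, 17 probes of 11 genes. The last 2 probes, H2-Ke2 and H2-Ke6, carry an H2 name but are neither class I nor class II genes. Of the members, 67 probes of 44 genes passed the filter on dim probes, which H2-M10.3 and H2-Ea did not pass. Psme2 and H2-L were not analysed here.

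Epidermal keratinocytes came from 2 mice labelled Casp-8F/–K5-Cre (F/-), whose Casp8 alleles are 1 flanked by loxP sites and 1 null, and from 2 mice labelled Casp-8F/+K5-Cre (F/+), in which the other allele is wild type. All 4 mice carried K5-Cre, a recombinase expressed from the promoter of keratin 5 (a basal keratinocyte gene), and all were labelled P3 for age. RNA was taken at culture passage 3 and at passage 1, and each of the 4 two-colour Agilent arrays compared the F/- RNA (Cy3) of a pair with its F/+ RNA (Cy5), 2 arrays per passage. The source name of the Cy5 RNA on both late arrays gives the first passage, whereas titles, descriptions and the passage entry give 3, which was followed. Cells were separated from the dermis with Dispase and grown without serum, in a keratinocyte medium to which pituitary extract and EGF were added. No array had the dyes exchanged, so that dye and genotype cannot be told apart in any ratio. Where the Casp8 probe lies relative to the deleted stretch is unknown here, so Casp8 was not used to check genotypes.

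Class I molecules show peptides from inside the cell to cytotoxic T cells. The proteasome cuts the peptides, the TAP transporter carries them into the endoplasmic reticulum, tapasin loads them, and the heavy chain reaches the surface together with beta-2-microglobulin. Interferons raise many of these genes, and they exchange catalytic subunits of the proteasome for those of the immunoproteasome. Class II molecules show peptides from the endocytic route to helper T cells and are in skin mainly a feature of Langerhans cells, while keratinocytes are known to carry them after exposure to interferon gamma.

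Promoters are shown first because the class I and class II genes, which are set against each other throughout, are known for shared promoter elements. RefSeq windows of GRCm38.p6 were found for 34 of 46 member symbols, in 38 windows from 250 bases before to 50 bases after the gene start. Each line gives the 250 bases before the start, 5′ to 3′ on the strand of the gene. Capitals mark the core of the interferon-stimulated response element (TTTC, any 2 bases, TTTC), a site for NF-kB (GGG, any 2 bases, TTCCC) and the inverted CCAAT or Y box (TGATTGG), each searched on both strands. H2-K1, H2-T22 and H2-T23 stand for class I heavy chains that rose in F/- cells, Tap1 for the processing genes, and H2-Aa for class II. The windows lie at chr17:34000348-34000597 (H2-K1, minus strand), chr17:36042743-36042992 (H2-T22, minus strand), chr17:36032702-36032951 (H2-T23, minus strand), chr17:34187306-34187555 (Tap1, plus strand) and chr17:34287824-34288073 (H2-Aa, minus strand).
H2-K1: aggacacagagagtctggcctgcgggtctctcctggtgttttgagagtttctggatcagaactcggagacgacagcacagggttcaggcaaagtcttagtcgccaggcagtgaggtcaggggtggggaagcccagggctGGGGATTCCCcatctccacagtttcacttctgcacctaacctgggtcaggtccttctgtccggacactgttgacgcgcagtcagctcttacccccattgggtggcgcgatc
H2-T22: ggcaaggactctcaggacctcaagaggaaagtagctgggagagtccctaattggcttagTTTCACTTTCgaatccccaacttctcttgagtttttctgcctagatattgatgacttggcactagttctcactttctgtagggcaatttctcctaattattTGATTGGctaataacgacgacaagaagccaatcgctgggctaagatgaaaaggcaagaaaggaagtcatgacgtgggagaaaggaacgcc
H2-T23: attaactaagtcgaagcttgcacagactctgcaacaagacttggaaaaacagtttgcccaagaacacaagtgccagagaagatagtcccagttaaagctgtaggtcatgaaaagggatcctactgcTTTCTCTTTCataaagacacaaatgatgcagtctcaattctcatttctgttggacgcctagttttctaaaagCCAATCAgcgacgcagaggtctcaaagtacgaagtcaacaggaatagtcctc
Tap1: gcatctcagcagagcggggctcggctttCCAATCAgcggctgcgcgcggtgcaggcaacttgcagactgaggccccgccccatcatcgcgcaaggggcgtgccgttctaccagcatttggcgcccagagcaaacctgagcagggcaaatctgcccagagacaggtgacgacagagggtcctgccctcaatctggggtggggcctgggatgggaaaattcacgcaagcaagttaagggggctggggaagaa
H2-Aa: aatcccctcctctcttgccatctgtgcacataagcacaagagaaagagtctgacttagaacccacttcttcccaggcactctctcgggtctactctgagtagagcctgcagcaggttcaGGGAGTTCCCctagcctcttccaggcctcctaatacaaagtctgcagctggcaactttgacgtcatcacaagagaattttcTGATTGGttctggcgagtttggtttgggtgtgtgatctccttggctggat

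Both H2-T22 and H2-T23 held the response element core, at positions -191 to -182 and -124 to -115 from the gene start. B2m and Psme1 also held these exact letters, and no other member window did, against 3.44% of all 32851 RefSeq promoter windows. Variants of the core were not searched or marked, such as tttcacttct in the H2-K1 line, so a window without a match may still hold a related element. The NF-kB letters stood in H2-K1, H2-D1, H2-Q7, H2-Aa and H2-Oa, that is, in class I and class II genes, and in 1.75% of all windows. The Y box was found in 15 of 20 heavy chain windows and 6 of 8 class II windows, in 2 of 7 windows of processing genes (Psmb9 and Tap1) and in 7.82% of all windows. The gamma-activated site (TTC, any 3 bases, GAA) stood in H2-M11, H2-M3, Psmb8 and H2-DMb2 and in 8.30% of all windows. None of these letters occurred in the window of Tapbp. The Tap1 and Psmb9 starts lie 226 bases apart on opposite strands, so the Tap1 window overlaps that of Psmb9 and the CCAAT match is the same bases in both. H2-K1 and H2-M9 have 2 overlapping windows each, whose matches are the same bases counted from each start. The heavy chain genes are close relatives, so their windows are not independent of each other. A match describes letters and is no evidence that a factor bound there.

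**Figure D1:**
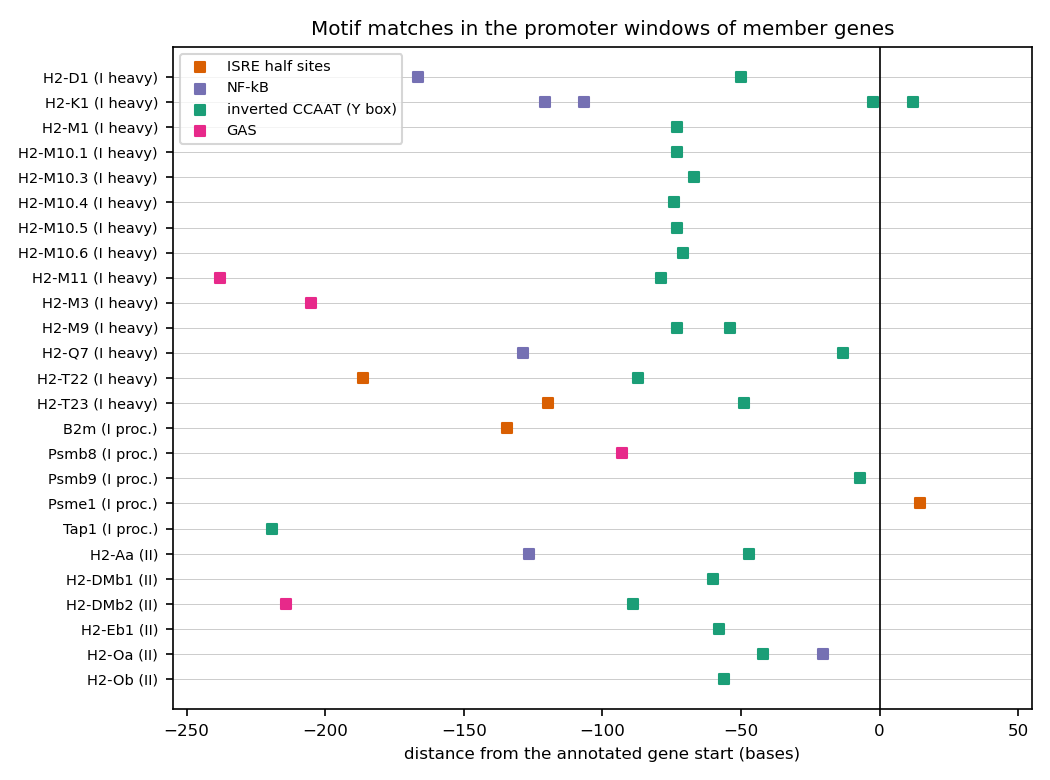
Motif matches in RefSeq promoter windows of member genes that hold at least 1 match. The horizontal axis is the distance in bases from the annotated gene start, each square is 1 match, and its colour gives the motif. The class II genes and most heavy chain genes have an inverted CCAAT match, and the response element core is seen in H2-T22, H2-T23, B2m and Psme1.

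Most members of the class I pathway read higher in F/- cells, and the class II genes did not. The measure is the log2 ratio of normalized intensities, F/- over F/+. Over both passages, 11 of the 67 probes tested rose in F/- cells and none fell, by limma's moderated test with Benjamini-Hochberg adjustment over all probes at 0.05, a share of 16.4%. Over all 35574 probes, 8.84% passed this test, 5.85% higher and 2.99% lower in F/- cells. The 11 probes stand for 8 genes, namely H2-K1, H2-Q5, H2-Q7, H2-Q10, H2-T22, H2-T23, Tap2 and Tapbp, and split into 8 of 37 heavy chain probes, 3 of 12 processing probes and 0 of 16 class II probes. An unadjusted p under 0.05 was seen for 26 members, all of the class I pathway and none of class II (29.4% of all probes). Ratios were above 0 on all 4 arrays for 26 of 49 class I pathway probes and 1 of 16 class II probes, against 18.9% of all probes, and below 0 on all 4 arrays for 4 of 67 members, against 19.9% of all probes. Among probes well above background in both channels on all arrays the counts were 26 of 38 and 1 of 11, against 21.5% of such probes. The classes also differ in intensity. Every called probe had a mean log2 intensity of 10.0 or more, and most class II probes were dim. Dim heavy chain genes, at 6.18 to 6.80, likewise had means between -0.09 and 0.06, so class and intensity were not separated here. Bright heavy chain probes may read several of these genes, so the 11 probes may not be 11 separate observations.

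At either passage taken alone no member passed, and neither did any other probe. At passage 3, 13 of 67 members had an unadjusted p under 0.05 (20% of all probes), with a smallest adjusted p of 0.0790. At passage 1 there were 24 (20.6% of all probes), with a smallest adjusted p of 0.0744, both in limma's fit. The test of the difference between passages called 0 members, with 2 at an unadjusted p under 0.05 (5.83% of all probes) and a smallest adjusted p of 0.840. With the pair as a block 12 members were called over both passages (9.07% of all probes). The values given next are those of the mean of both passages, with the SE of the fit, and array values are given for pairs 1 and 2 in that order. Arrays of a pair hold RNA from the same animals. When they were averaged first, which leaves 2 values, no member was called and the 11 probes had limma adjusted p-values between 0.0513 and 0.0528. The share of all probes called in that fit is not given here, so its lack of calls cannot be read as particular to the members. Leaving out either passage 1 array, or the passage 3 array of pair 1, ended every call among members and among all other probes. Without the passage 3 array of pair 2, some members and some other probes were still called. Such fits leave 1 array at a passage, so their calls are not read as a result about the members. The 11 probes stayed above 0 with each array left out, and the class I pathway median over both passages ranged from 0.23 to 0.66.

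**Figure D2:**
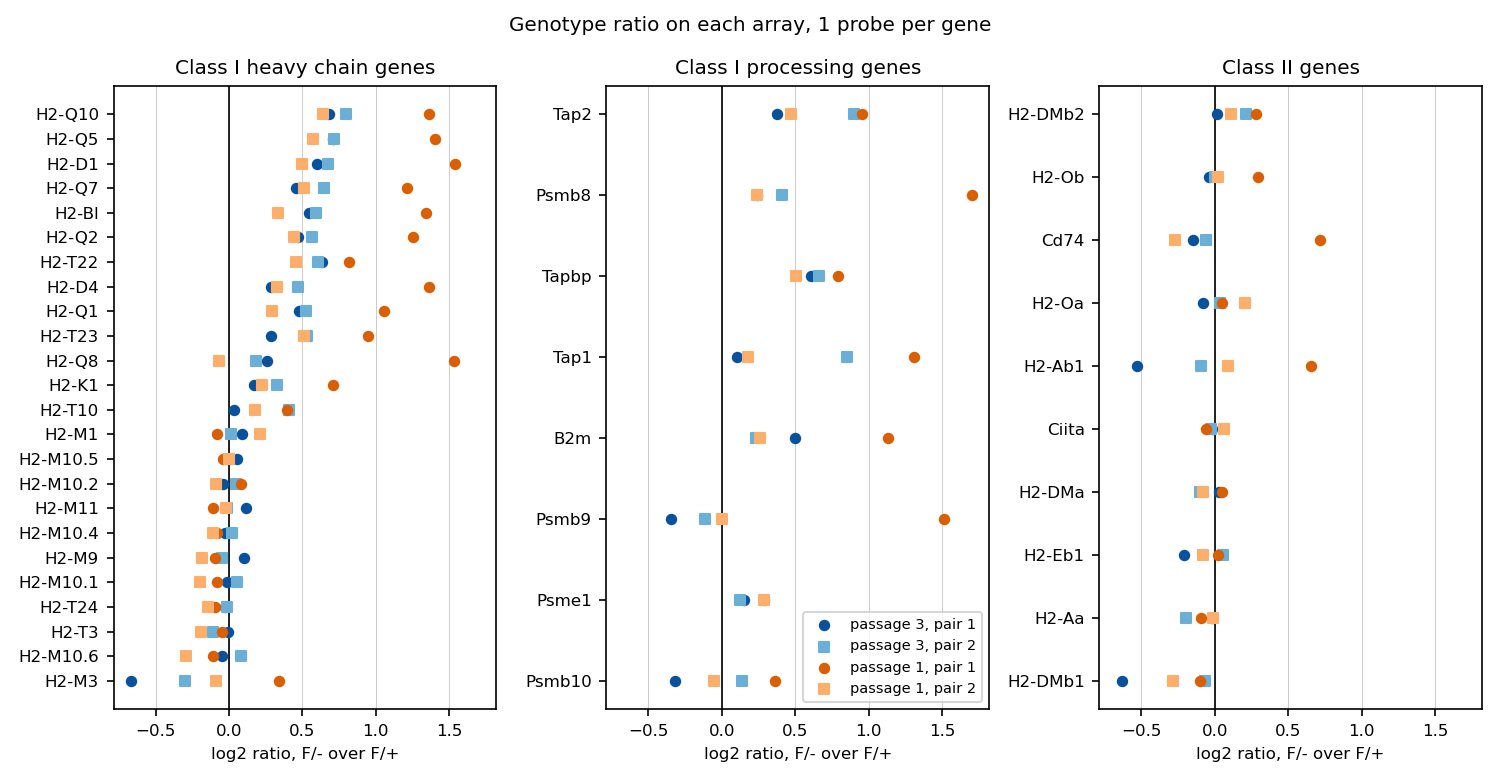
Log2 ratio of F/- over F/+ (horizontal axis) for each member gene with a probe that passed the filter, on each of the 4 arrays, with the brightest probe of each gene. Colours and symbols give passage and pair, and genes are ordered by their mean. The upper heavy chain genes and most processing genes lie right of 0 on all arrays in most of them with the passage 1 array of pair 1 farthest right, and class II genes lie around 0.

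H2-K1 and H2-D1 encode the classical class I heavy chains, which present peptides in nearly all cells. H2-K1 has 3 probes, and the 2 dimmer ones rose in F/- cells. Probe A_52_P474242 read 0.66 and 0.60 at passage 3 and 1.31 and 0.73 at passage 1, a mean of 0.83 ± 0.11 (SE, limma adjusted p = 0.0281) or 1.77-fold. Probe A_52_P50496 read 0.73 and 0.74 at passage 3 and 1.48 and 0.63 at passage 1, a mean of 0.90 ± 0.15 (limma adjusted p = 0.0371). All 8 of these ratios lay above 0, and the passage 1 array of pair 1 stood well above the other arrays. The brightest H2-K1 probe read less, 0.17 and 0.33 at passage 3 and 0.71 and 0.23 at passage 1, and its mean of 0.36 ± 0.10 did not pass (limma adjusted p = 0.0869). The bright H2-D1 probe read 0.60 and 0.68 at passage 3 and 1.54 and 0.50 at passage 1, with a mean of 0.83 ± 0.18 (limma adjusted p = 0.0562, and 0.0487 with the pair number as a block term). A dim H2-D1 probe stayed between -0.08 and 0.09.

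The Q and T genes encode non-classical class I chains, which show fewer variants than the classical ones. H2-Q7 belongs to the Qa-2 genes, and it read 0.46 and 0.65 at passage 3 and 1.21 and 0.51 at passage 1 (mean 0.71 ± 0.13, limma adjusted p = 0.0435). H2-Q5 read 0.71 and 0.72 at passage 3 and 1.40 and 0.57 at passage 1 (mean 0.85 ± 0.14, limma adjusted p = 0.0389). H2-Q10, known as a secreted class I chain of the liver, has 4 probes that disagree. The brightest read 0.68 and 0.80 at passage 3 and 1.36 and 0.64 at passage 1 (mean 0.87 ± 0.13, limma adjusted p = 0.0320). A second bright one, A_52_P428354, had a mean of 0.75 ± 0.20 that did not pass (limma adjusted p = 0.0858), and 2 dim ones had means of 0.06 and 0.02. Class I heavy chains are near-identical in sequence and the probe sequences were not analysed here, so a bright probe may read several of these genes and the gene names in this family are uncertain.

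H2-T23 encodes Qa-1, a ligand of inhibitory receptors on natural killer cells. It read 0.28 and 0.53 at passage 3 and 0.94 and 0.51 at passage 1 (mean 0.57 ± 0.10, limma adjusted p = 0.0389). H2-T22 encodes a ligand of some gamma delta T cells, and its probes were the most even among arrays of the heavy chain probes called, with SDs over 4 arrays of 0.149 and 0.133. Probe A_51_P432544 read 0.63 and 0.60 at passage 3 and 0.82 and 0.46 at passage 1 (mean 0.63 ± 0.08, limma adjusted p = 0.0270). Probe A_52_P197826 read 0.80 and 0.67 at passage 3 and 0.96 and 0.68 at passage 1 (mean 0.78 ± 0.07, limma adjusted p = 0.0257).

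Other heavy chains above 0 on all arrays did not pass the test. The brightest probes of H2-Bl, H2-Q2, H2-D4, H2-Q1 and H2-T10 had means of 0.70, 0.68, 0.61, 0.59 and 0.25, with adjusted p-values in limma's fit between 0.0535 and 0.1335. Dimmer H2-Bl probes had means of -0.04 and 0.05. H2-Q8 read 0.26 and 0.18 at passage 3 and 1.53 and -0.07 at passage 1, a mean of 0.48 with 1 array far above the others. H2-M3, which presents formylated peptides of bacteria, read -0.67 and -0.30 at passage 3 and 0.34 and -0.09 at passage 1 (mean -0.18 ± 0.10, limma adjusted p = 0.329). Its second, dimmer probe had a mean of 0.28 (limma adjusted p = 0.107), so the direction of H2-M3 depends on the probe. The remaining heavy chain genes with a kept probe were H2-M1, H2-M9, H2-M11, H2-T3, H2-T24 and H2-M10.1, H2-M10.2, H2-M10.4, H2-M10.5 and H2-M10.6, of which the H2-M10 genes are known from the vomeronasal organ and H2-T3 from the gut. Their brightest probes had means between -0.09 and 0.06, with mean log2 intensities of 6.18 to 6.80. H2-Ke2 and H2-Ke6, which share the name but not the function, had means of -0.07 and -0.16.

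Among the processing genes, Tapbp and Tap2 passed the test. Tapbp encodes tapasin, which holds empty class I molecules at the TAP transporter, and both of its probes rose in F/- cells. The brighter one read 0.61 and 0.66 at passage 3 and 0.79 and 0.51 at passage 1 (mean 0.64 ± 0.07, limma adjusted p = 0.0257). The dimmer one read 1.52 and 0.89 at passage 3 and 1.01 and 0.90 at passage 1 (mean 1.08 ± 0.12, limma adjusted p = 0.0257), or 2.11-fold. Tapasin was thus not highest on the same array with both probes. Tap2, a subunit of the peptide transporter, read 0.37 and 0.90 at passage 3 and 0.95 and 0.47 at passage 1 (mean 0.67 ± 0.13, limma adjusted p = 0.0457, and 0.0599 with the pair as a block). Tap1, the other subunit, read 0.10 and 0.85 at passage 3 and 1.31 and 0.18 at passage 1, and its mean of 0.61 ± 0.22 did not pass (limma adjusted p = 0.159). In both transporter genes the higher array at passage 3 was that of pair 2, and at passage 1 that of pair 1.

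B2m encodes beta-2-microglobulin, the light chain that all class I molecules need. Its brightest probe read 0.50 and 0.23 at passage 3 and 1.13 and 0.26 at passage 1 (mean 0.53 ± 0.16, limma adjusted p = 0.103, and 0.0491 when the pair was a block term). The other B2m probes had means of 0.16 and -0.03, so the B2m probes differ in size and sign. Psmb8, Psmb9 and Psmb10 encode the catalytic subunits of the immunoproteasome. Psmb8 read 0.24 and 0.41 at passage 3 and 1.70 and 0.24 at passage 1 (mean 0.65 ± 0.24, limma adjusted p = 0.162), and a second probe had a mean of 0.69. Psmb9 read -0.35 and -0.12 at passage 3 and 1.51 and -0.001 at passage 1 (mean 0.26 ± 0.25, limma adjusted p = 0.548). Psmb9 was therefore high in F/- cells on 1 array and at or below 0 on the others. Psmb10 read -0.32 and 0.14 at passage 3 and 0.36 and -0.06 at passage 1 (mean 0.03 ± 0.11, limma adjusted p = 0.880). Psme1, a subunit of the proteasome activator, read 0.15 and 0.13 at passage 3 and 0.29 and 0.29 at passage 1 (mean 0.21 ± 0.05, limma adjusted p = 0.0695). None of the proteasome members passed the test, and the array-to-array spread of Psme1 was small where that of Psmb8 and Psmb9 was large.

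The proteasome subunits that the immunoproteasome replaces were looked at as well. For the counts of this paragraph, the share of all probes called over both passages was 8.84%, with 5.85% higher and 2.99% lower in F/- cells. Among 17 constitutive proteasome and activator genes, 2 rose and 1 fell in F/- cells over both passages, with a median ratio of -0.11. Psmb7, the constitutive counterpart of Psmb10, had a mean of 0.61 ± 0.09 (limma adjusted p = 0.0307), and Psmb5, the counterpart of Psmb8, 0.29 ± 0.05 (limma adjusted p = 0.044). Psma2, a structural subunit, had a mean of -0.49 ± 0.07 (limma adjusted p = 0.0315), and Psmb6, the counterpart of Psmb9, -0.07 (limma adjusted p = 0.587). Of the class I presentation partners measured, 0 of 11 passed in either direction, with Calr (calreticulin) at 0.50 and Pdia3 at -0.32. Among 18 regulators of MHC genes, Irf1 rose (mean 0.45 ± 0.06, limma adjusted p = 0.0295), as did Rfx5, a factor that binds MHC promoters (mean 0.54 ± 0.09, limma adjusted p = 0.0409), and Creb1 fell (mean -0.52 ± 0.08, limma adjusted p = 0.0336). Irf1 encodes an interferon-induced activator of class I genes, and its ratios were 0.05 and 0.23 at passage 3 and 0.81 and 0.69 at passage 1. Both passage 1 arrays were thus above both passage 3 arrays.

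No class II gene passed the test between the genotypes. The surface chain H2-Aa read -0.02 and -0.19 at passage 3 and -0.09 and -0.01 at passage 1, and H2-Eb1 read -0.21 and 0.06 at passage 3 and 0.02 and -0.08 at passage 1. The brightest H2-Ab1 probe read -0.53 and -0.09 at passage 3 and 0.66 and 0.09 at passage 1 (mean 0.03 ± 0.13), and the 3 dimmer probes had means of 0.14, -0.02 and -0.05. Each of the 2 ratios of this brightest probe at passage 3 thus lay below 0 and each at passage 1 above it. The test of the difference between passages did not call the probe (limma adjusted p = 0.841). Cd74, the invariant chain that guides class II molecules to the endosome, read -0.15 and -0.06 at passage 3 and 0.72 and -0.27 at passage 1 (mean 0.06 ± 0.17). Ciita, the class II transactivator, read between -0.06 and 0.06 on the 4 arrays. H2-DMa and H2-DMb1 encode chains of the peptide exchanger DM, and H2-Oa and H2-Ob those of its inhibitor DO. H2-DMa stayed between -0.10 and 0.05, H2-Oa between -0.08 and 0.20, and H2-Ob between -0.04 and 0.30. H2-DMb1 was below 0 on all arrays, at -0.63 and -0.07 at passage 3 and -0.10 and -0.28 at passage 1, and its mean of -0.27 ± 0.11 did not pass (limma adjusted p = 0.182, the smallest of the class). The bright H2-DMb2 probe was above 0 on all arrays with a mean of 0.16 (limma adjusted p = 0.204). Most class II probes were dim, H2-DMb1 and the brightest H2-Ab1 probe being brighter. The bright H2-Aa probe had raw signals of 51.9 to 76.3 in F/- cells and 91.4 to 145 in F/+ cells, over local backgrounds of 36 to 39 and 54 to 61.5, close enough to background that a difference between the genotypes may not be detectable. All 11 T and B cell markers also counted as well above background on all arrays, so this flag alone does not show that a gene is expressed. Of 8 class II processing partners, 0 passed in either direction, against 8.84% of all probes.

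The class medians set the arrays side by side. The median ratio of the 32 class I pathway genes was 0.16 and 0.28 at passage 3 and 0.81 and 0.22 at passage 1. For the 24 heavy chain genes it was 0.14 and 0.26 at passage 3 and 0.55 and 0.20 at passage 1, and for the 8 processing genes 0.19 and 0.32 at passage 3 and 1.04 and 0.25 at passage 1. The heavy chain genes include the dim H2-M1, H2-M9, H2-M11, H2-M10, H2-T3 and H2-T24 probes, with means between -0.09 and 0.06. The heavy chain and pathway medians thus mix dim probes near 0 with bright ones that read higher. The median of the 10 class II genes lay between -0.06 and 0.05 on the 4 arrays, and that of all probes between -0.01 and 0.003. The passage 1 array of pair 1 gave the highest ratio of the 4 for 11 of 12 processing probes, 22 of 37 heavy chain probes and 10 of 16 class II probes, against 27.1% of all probes. Without that array the passage 1 median of the class I pathway was 0.22, against 0.64 with it.

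Interferon-stimulated genes and macrophage markers were read on the same arrays. The median ratio of 22 interferon-stimulated genes was 0.23 and 0.42 at passage 3 and 1.32 and 0.18 at passage 1. Of the 22, 0 passed the test over both passages, against 8.84% of all probes. All 22 were above 0 on the passage 1 array of pair 1. Their summed normalized intensity at passage 3 was 88114 and 128746 in F/- cells and 65587 and 75498 in F/+ cells, and at passage 1 it was 91641 and 38881 in F/- cells and 26855 and 34109 in F/+ cells. The 15 macrophage and leukocyte markers had medians of 0.53 and 0.40 at passage 3 and 0.91 and 0.18 at passage 1. Of these, 4 (Lyz1, Lyz2, Marco and Pf4) rose in F/- cells and 0 fell, against 5.85% and 2.99% of all probes. The summed intensity of the 15 markers at passage 3 was 16958 and 11256 in F/- cells and 5029 and 4854 in F/+ cells. At passage 1 it was 43781 and 31706 in F/- cells and 25954 and 27804 in F/+ cells. All 15 were well above background on all arrays in both genotypes. Their part in the class I result was not tested. In these cultures, fewer cells of a type and less RNA per cell cannot be told apart.

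Markers of the remaining skin cells gave these values, to be read beside the genotype calls among all probes. Of those, 8.84% passed over both passages, 5.85% higher and 2.99% lower in F/- cells. The 8 Langerhans and dendritic cell markers, whose cells carry class II, had medians between -0.10 and 0.05 on the 4 arrays and 0 of 8 passed the genotype test. Their summed intensity ranged from 1193 to 1363 in F/- cells and from 1184 to 1406 in F/+ cells. For the 11 T and B cell markers it ranged from 1454 to 1622 in F/- cells and from 1547 to 1702 in F/+ cells. The Langerhans and dendritic cell sums may thus be mostly background, and their likeness does not show equal numbers of these cells. The 7 melanocyte, 5 endothelial and 11 T and B cell markers had 0 calls in the genotype test over both passages, as had the 8 fibroblast markers, whose medians were 0.85 and 0.29 at passage 3 and 0.23 and 0.01 at passage 1. All 10 keratinocyte markers were well above background on all arrays, and 3 of them fell and 0 rose in F/- cells, with a median of means of -0.04. Of the 10, 4 and 4 were above 0 on the passage 3 arrays and 4 and 5 on the passage 1 arrays. The 3 that fell were Krt5, Krt14 and Col17a1, with means of -0.60, -0.66 and -0.58 (limma adjusted p = 0.0318, 0.0262 and 0.0299). The other markers of the list, among them Trp63, Itga6 and Itgb4, passed in neither direction.

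**Figure D3:**
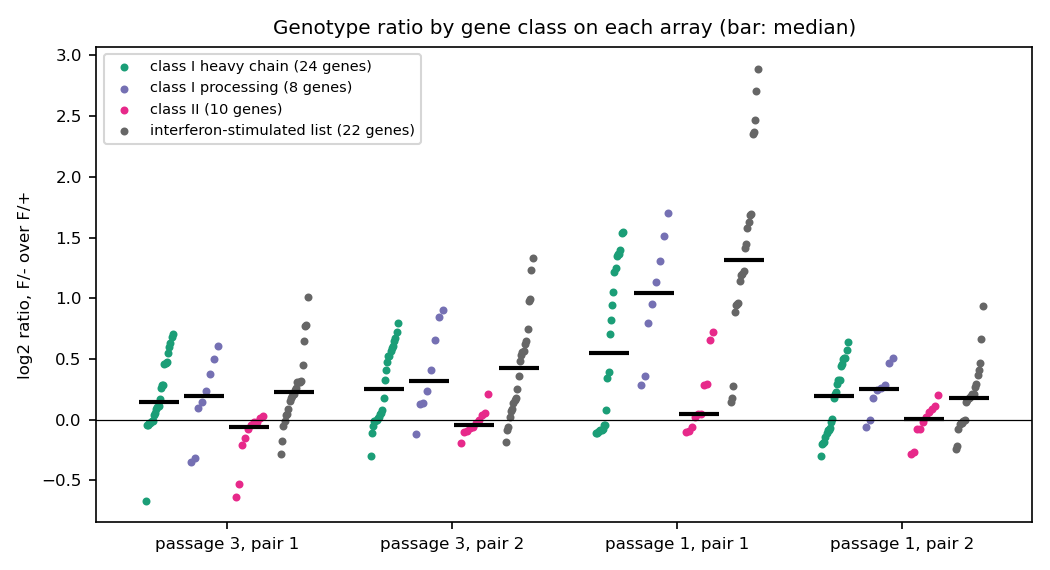
Log2 ratio of F/- over F/+ (vertical axis) by array, for class I heavy chain, class I processing, class II and interferon-stimulated genes. Each point is a gene and each bar the median of its class. On the passage 1 array of pair 1 the medians of the processing genes (1.04) and interferon-stimulated genes (1.32) stand highest, while class II medians stay within -0.06 to 0.05.

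The size of the class I ratios depended on how the dyes were balanced. Loess sets the ratio to about 0 at each intensity, and the 11 called probes are mostly bright, with mean log2 intensities between 10.0 (Tap2) and 14.8 (H2-T23). With median centring in its place, 7 members were called, all higher in F/- cells and 6 of them among the 11, while over all probes 917 were higher and 3050 lower, against 2080 and 1064 with loess. Under median centring the 3558 brightest probes, those with a mean log2 intensity of at least 12.4, had a median ratio of -0.41, against -0.003 with loess. The 11 called probes were above 0 under every alternative run. H2-T23 read 0.04, the bright Tapbp probe 0.17, H2-Q7 0.26, H2-Q10 and H2-Q5 0.36 each and the bright H2-T22 probe 0.39 with median centring. The dimmer probes of Tapbp and H2-T22 read 0.92 and 0.64, and the brightest H2-K1 probe turned to -0.24.

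**Figure D4:**
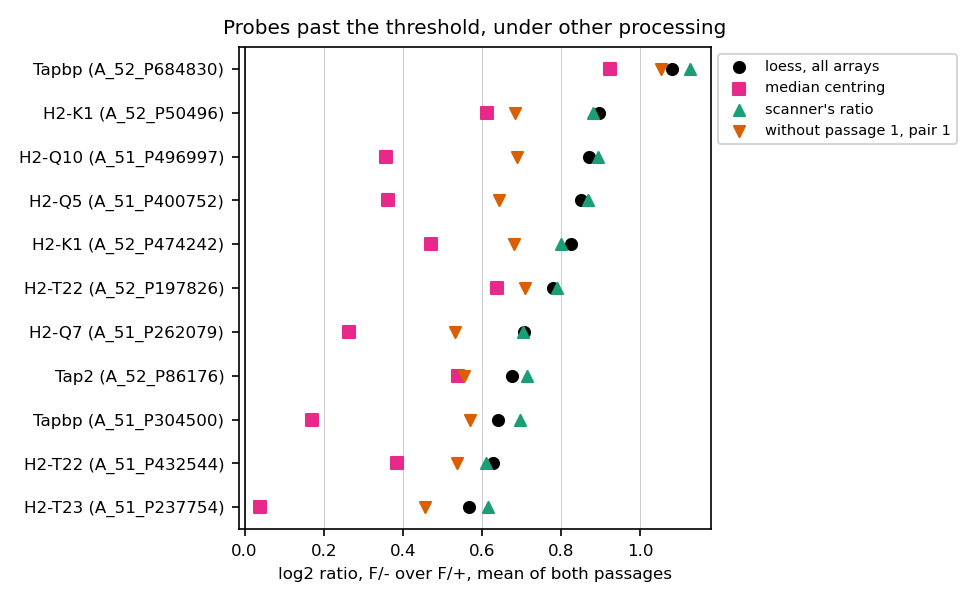
Mean log2 ratio of F/- over F/+ of the 11 probes called over both passages (horizontal axis), with loess, with median centring, with the scanner's own ratio, and with loess without the passage 1 array of pair 1. All values lie right of 0, and with median centring the bright probes of H2-T23 (0.04) and Tapbp (0.17) have the lowest values.

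Between passages, within each genotype, few members passed the test. In F/- cells 0 of 67 members differed between passage 3 and passage 1 in limma's separate-channel fit with Benjamini-Hochberg adjustment, with 7 at an unadjusted p under 0.05 (20.6% of all probes). After adjustment 5.09% of all probes were called there, 2.81% higher and 2.28% lower. In F/+ cells 2 of 67 members rose at passage 3 and none fell (all probes: 5.66% called, 3.17% higher and 2.49% lower), a share of 2.99%, and 14 had an unadjusted p under 0.05 (20.9% of all probes). The passage comparisons in F/- and F/+ cells share arrays, so array effects enter both. With the pair as a block, 2 members were called in F/- cells and 5 in F/+ cells (10.9% and 11.5% of all probes).

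H2-DMb1, a chain of the class II peptide exchanger, rose in F/+ cells. Its normalized log2 intensity in F/- cells was 9.88 and 9.94 at passage 3 and 8.87 and 8.74 at passage 1. In F/+ cells it was 10.52 and 10.01 at passage 3 and 8.98 and 9.02 at passage 1. Passage 3 lay above passage 1 in both genotypes without overlap. The change was 1.11 ± 0.26 in F/- cells (limma adjusted p = 0.0579, and 0.0181 with the pair as a block) and 1.26 ± 0.26 in F/+ cells (limma adjusted p = 0.0364). Raw signals of this probe were 784.5 and 782.2 at passage 3 and 307.5 and 391.2 at passage 1 in F/- cells, and 1866.1 and 1244.7 at passage 3 and 589.6 and 720.5 at passage 1 in F/+ cells, well over its local background. Its partner chain H2-DMa changed by -0.13 in F/- cells and -0.11 in F/+ cells, neither past the test. H2-DMb2 changed by 0.65 in F/- cells and 0.74 in F/+ cells (limma adjusted p = 0.145 and 0.107), and the probes of these neighbouring, related genes may share signal.

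Psme1, the proteasome activator subunit, rose in F/+ cells. Its log2 intensity in F/- cells was 14.48 and 14.82 at passage 3 and 14.02 and 14.00 at passage 1, and in F/+ cells 14.33 and 14.69 at passage 3 and 13.74 and 13.71 at passage 1. The passages did not overlap in either genotype. The change was 0.64 ± 0.16 in F/- cells (limma adjusted p = 0.0759) and 0.79 ± 0.16 in F/+ cells (limma adjusted p = 0.0375), and the test of the difference between the genotypes called neither Psme1 nor H2-DMb1. Without either passage 1 array, 0 members were called in F/+ cells.

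With all 4 arrays, 3 other members passed the test in F/+ cells with the pair as a block and not without it. Psmb8 changed by 1.69 in F/+ cells (limma adjusted p = 0.143, and 0.0377 with the block) and by 1.04 in F/- cells. Psmb9 changed by 1.58 in F/+ cells (limma adjusted p = 0.184, and 0.0472 with the block) and by 0.59 in F/- cells. The brightest H2-Ab1 probe changed by 1.43 in F/+ cells (limma adjusted p = 0.0787, and 0.0105 with the block) and by 0.75 in F/- cells. Psmb8 intensities at passage 3 were 11.94 and 11.94 in F/- cells and 11.70 and 11.53 in F/+ cells, and at passage 1 they were 11.49 and 10.31 in F/- cells and 9.79 and 10.07 in F/+ cells. In F/- cells the culture of pair 1 was thus already high at passage 1. A dim B2m probe, A_52_P105594, fell by 1.11 in F/- cells with the block (limma adjusted p = 0.0381, and 0.161 without it). It changed by -0.76 in F/+ cells. A brighter B2m probe, A_51_P129006, changed by -1.24 in F/- cells and -0.70 in F/+ cells (limma adjusted p = 0.135 and 0.361, without the block). The brightest B2m probe changed by 0.50 in F/- cells and 0.83 in F/+ cells, so the B2m probes disagree in direction.

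With all arrays, no heavy chain passed the passage test in either genotype, with or without the block. Their median change was -0.06 in F/- cells and 0.03 in F/+ cells, 10 and 14 of 24 genes being higher at passage 3, against medians over all probes of 0.007 and 0.02. The brighter H2-T22 probe changed by 0.00057 in F/- cells and 0.02 in F/+ cells, H2-T23 by 0.02 and 0.34, and the brightest H2-K1 probe by 0.37 and 0.59. Both H2-M3 probes were higher at passage 3, the brighter by 0.73 in F/- cells and 1.34 in F/+ cells. Its limma adjusted p of 0.0720 in F/+ cells was the smallest of the heavy chains (0.287 in F/- cells). The dimmer H2-M3 probe changed by 0.78 and 0.88. The processing genes had medians of 0.51 in F/- cells and 0.66 in F/+ cells, with 6 and 7 of 8 higher at passage 3, and class II genes -0.06 and -0.02. Over the same passages macrophage markers had medians of -1.15 in F/- cells and -1.10 in F/+ cells, where 3 and 6 of 15 fell, and interferon-stimulated genes 0.31 and 0.73, where 0 and 1 of 22 (Rsad2) rose. Melanocyte markers had medians of -1.10 in F/- cells and -1.26 in F/+ cells, where 4 and 3 of 7 fell, and fibroblast markers 0.71 and 0.04 with 0 called. In F/+ cells 1 of 8 Langerhans and dendritic cell markers fell and 1 of 11 T and B cell markers rose. Of 5 endothelial markers, 1 fell in each genotype. Over all probes, 2.28% fell and 2.81% rose in F/- cells, and 2.49% fell and 3.17% rose in F/+ cells. In F/+ cells Irf2, a regulator of MHC genes, fell by 1.20 (limma adjusted p = 0.0394). The part of these markers in the passage values was not tested.

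**Figure D5:**
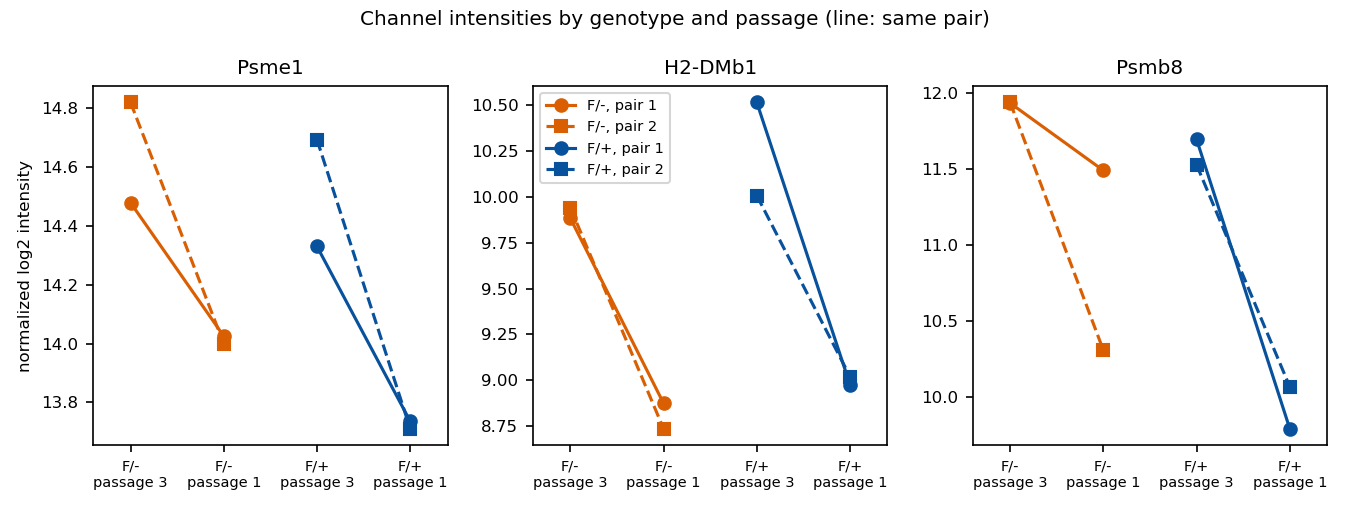
Normalized log2 intensity (vertical axis) of Psme1, H2-DMb1 and Psmb8 in F/- and F/+ cells at passage 3 and passage 1, with a line joining the same pair. Psme1 and H2-DMb1 lie higher at passage 3 in every culture, and for Psmb8 the F/- culture of pair 1 is already at 11.49 at passage 1.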

How the data were processed

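Gene expression was measured on 4 two-colour Agilent arrays, which hold 8 RNA samples, on 1 slide. Per the submitters' processing notes, Agilent Feature Extraction 9.1.3.1 made the scanner files. Each spot, per the file headers, has a raw mean intensity and a local background (median) per channel, and a log10 ratio of processed signals, Cy5 over Cy3. The value table deposited by the authors holds log10 ratios of Cy3 over Cy5 that equal this column with its sign turned (largest gap 4.96e-06), so scale, centring and direction could be settled. The median per array was 0 and -0.000733 on the passage 3 arrays and -0.00223 and 0 on the passage 1 arrays of pairs 1 and 2.

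From the raw intensities, background was corrected by normexp (offset 50) and ratios by loess within arrays (limma 3.58.1, R 4.3.3). Controls and outlier-flagged spots had weight 0. Spots of a probe were averaged, and a probe was kept if 2 or more arrays had it well above background in either channel and no more than 1 array lacked a value, which left 35574 of 41174. Genotype was tested with lmFit and eBayes over all 4 arrays with passage as the group (2 residual degrees of freedom, 2.81 from the prior). Passage within a genotype was tested with the separate-channel fit after loess and Aquantile (correlation 0.741 between channels, also used where an array was left out). Tests were two-sided. Log2 intensities of different probes are not compared as levels.

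The share of gene spots well above background was 75.8% to 85.4% in Cy3 and 80.6% to 87.9% in Cy5, and 0 gene spots were saturated. Over 35475 probes (genes are not replicates), the arrays correlated with each other at Pearson's r of 0.477 to 0.581. Precision is limited by having 2 arrays a passage. The same animals gave RNA at both passages, per the series' design text, so pair numbers pair the arrays, although deviations from the passage mean correlated at -0.000464 across probes. P-values over 4 arrays treat arrays of the same animals as separate. Slide could not be a block.

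The members and all gene lists were chosen with earlier results of these data known. Named with array values were the members called in any comparison and a fixed set of class I, processing and class II genes, each with its brightest probe, and other probes where they differ in sign or call. Gene and promoter data are from RefSeq tables of GRCm38.p6. The fits were tested on simulated data. Alternatives covered background correction, normalization, the scanner's ratio and the authors' table, the filter on dim probes, the pair as a block and each array left out.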

Additional observations from a re-analysis of the deposited data

How the results depend on the processing

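No result was tested with exchanged dyes, and 4 arrays from 2 animals per genotype limit every call. Dim class II probes limit what can be seen there. For the 20 member probes followed over both passages, 188 of 260 values under alternatives kept direction and side of the threshold, 60 lost and 6 gained the threshold and 6 changed sign. The causes were not tested.

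Members called over both passages numbered 11. They were 17 with a normexp offset of 0 (3933 of all probes, against 3144), 7 with median centring (3967), 0 with the arrays of a pair averaged first, and 0 to 7 with each array left out in turn (0 without either passage 1 array or the passage 3 array of pair 1, where 0 of all probes passed, and 7, of which 6 higher and 1 lower, without the passage 3 array of pair 2, with 3966 of all probes). Psmb9 changed sign to -0.12 without the passage 1 array of pair 1. Psmb10 changed sign to -0.27 with median centring, -0.072 without the passage 1 array of pair 1 and -0.081 without the passage 3 array of pair 2, and ranged up to 0.15 without the passage 3 array of pair 1. Psme1 and the brightest H2-K1 probe changed sign to -0.24 each with median centring.

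With the pair as a replicate block, 12 members were called over both passages, 10 of the 11 among them. Tap2 lost its call (limma adjusted p = 0.0599), and B2m and H2-D1 gained one (0.0491 and 0.0487). Between passages, 2 members were called with the block in F/- cells and 5 in F/+ cells, and it changed no other call of a member.

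The class I pathway median at passage 3 was 0.24, and 0.11 with median centring and 0.39 with the stricter filter; at passage 1 it was 0.64, and 0.21 with median centring. With an array left out it ranged from 0.16 to 0.28 at passage 3, from 0.22 to 0.81 at passage 1 and from 0.23 to 0.66 over both. The class II median at passage 3 was -0.057, and -0.084 with offset 0, -0.11 without background subtraction, -0.11 with median centring and -0.23 with the scanner's ratio and the authors' table (-0.060 to -0.044 with an array left out). At passage 1 it was 0.064, and 0.0068 with median centring (0.0022 to 0.064 with an array left out). Over both passages it ranged from -0.060 to 0.047 with an array left out. For passage 3 minus passage 1 it was -0.11, and -0.16 with offset 0, -0.067 as the mean of all probes of a gene and -0.19 to -0.053 with an array left out.

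Between passages in F/- cells, members called were 1 with offset 0 (2091 of all probes, against 1805), 1 with quantile normalization of all channels (1820) and 0 to 3 with an array left out (107 without the passage 1 array of pair 1, 149 without that of pair 2, 3070 without the passage 3 array of pair 1 and 1779 without that of pair 2). The class I median was -0.004, and 0.029 with quantile normalization, 0.030 with the stricter filter and -0.15 to 0.13 with an array left out. The class II median was -0.058, and -0.14 with offset 0 and -0.083 to -0.017 with an array left out. In F/+ cells, members called were 0 to 6 with an array left out (183 and 211 of all probes without a passage 1 array of pair 1 or 2, 4512 and 1324 without a passage 3 array, against 2007). The 6 were 4 higher and 2 lower. The class II median was -0.020, and 0.0097 without background subtraction, -0.059 with the stricter filter and 0.0098 to 0.084 with an array left out.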

Other observations

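Cd1d1, which encodes a class I-like molecule that presents lipids, carries no H2 name and was measured among 8 class I-like genes outside the MHC list. It rose at passage 3 over passage 1 in both genotypes, by 2.26 on the log2 scale in F/- cells (limma adjusted p = 0.0110) and by 2.88 in F/+ cells (limma adjusted p = 0.00374). Its genotype ratios were 0.07 and -0.02 at passage 3 and 0.81 and 0.49 at passage 1, and their mean did not pass (limma adjusted p = 0.0607). Cd1d1 was named after its values were seen, and the other 7 class I-like genes passed in neither comparison.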
